A study of Mus musculus with 6 samples.

Results

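Reactive astrocyte and complement genes of the hippocampus, the brain region needed for forming memories, were followed by name through 9 members: Vim, Cd44, Serpina3n, Ggta1, Cp, Srgn, C3, C4b and Serping1. Of these, 8 matched a row of a table of 22050 genes by symbol, and Serpina3n, which matched none, was not analysed here. The libraries came from young mice, 3 labelled control and 3 labelled as given injections of lidocaine, a local anaesthetic acting on sodium channels of nerve cells. The design text speaks of multiple injections and also of old mice, which were not analysed here; the table's columns give group and number but no age, and were taken as the young libraries by the sample titles. The labels give no strain, sex, dose, vehicle or interval, and do not tie libraries to animals; the p-values therefore cover the spread between these libraries, which may be technical. The question addressed is whether lidocaine alters hippocampal gene expression, and the study's title names A1 astrocytes and microglia in aged mice.

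Astrocytes are support cells of neurons that respond to injury and inflammation by enlarging and changing their genes, a state called reactive. Work in mice has sorted part of that response into a set seen after many injuries (pan-reactive, with Vim, Cd44, Cp and Serpina3n), a set seen after inflammatory stimulation (A1, with Ggta1, Serping1 and Srgn, and C3 as the usual marker) and a set seen after ischaemia (A2). Complement is a chain of secreted proteins in which C1 cleaves C4 and C2, the fragments form an enzyme that cleaves C3, and C3 fragments tag surfaces for uptake by phagocytes. In brain, C3 and C4 are made by glia and take part in removing synapses.

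Totals ranged from 13887604 to 16984995 estimated counts per library. All 22050 rows carry rat Ensembl identifiers although the labels name the mouse, so genes are named as the table names them and their levels may depend on which species' genes the reads were counted on. Levels here are FPKM values (fragments scaled to transcript length and library size). Of 9 matched genes that mark hippocampal neurons, 7 were between 0.34 and 138.44 in every library. Among these was C1ql2 of the dentate gyrus, at 35.19 to 43.96. Prox1, also of the dentate gyrus, was at 0 to 0.13, and Lct at 0.01 to 0.05. Whether these low values come from the way reads were counted was not tested. The defining astrocyte marker Gfap, the astrocyte filament protein, was at 358.06 to 427.59 FPKM. In whole tissue, fewer cells of a type and less RNA per cell cannot be told apart.

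Per length of transcript, Vim was the most abundant member and Srgn the least. Over the 6 libraries FPKM averaged 24.5 ± 2.1 for Vim, 8.35 ± 1.07 for Cd44 and 2.95 ± 0.581 for C3 (SD, n = 6). Then came Cp at 2.03 ± 0.241, Serping1 at 2.02 ± 0.276 and Ggta1 at 1.21 ± 0.182, with the C4b row at 0.492 ± 0.322 and Srgn at 0.0517 ± 0.127. Complement C4 is spread over further rows, described below, of which LOC103689965 averaged 4.56 ± 1.56. Vim and Cd44 stood clear of their neighbours in the order of the members, with ranges that did not overlap. C3 lay above Cp in 6 of 6 libraries though their ranges overlapped, and Cp and Serping1 could not be ordered, Cp being the higher in 4 of 6. Serping1 and Ggta1 had ranges that did not overlap.

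No member passed the test of lidocaine against control. Of the 8 members with a row, 7 passed the filter on low counts and were tested, and 0 of 7 were called by edgeR's quasi-likelihood test at a Benjamini-Hochberg-adjusted p under 0.05, by DESeq2 or at an unadjusted p under 0.05. Over all 13408 genes tested, edgeR called 0.0149%, DESeq2 0.172%, and 4.36% had an unadjusted edgeR p under 0.05. Adjusted p-values of the members lay between 0.995 and 0.997 (edgeR, Benjamini-Hochberg), and the smallest unadjusted p was 0.103, for Ggta1. Fold changes were negative for 5 of the 7 and positive for 2, and their median on the log2 scale was -0.22, where the median of all genes tested was 0.00 and 50.1% were negative.

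**Figure D1:**
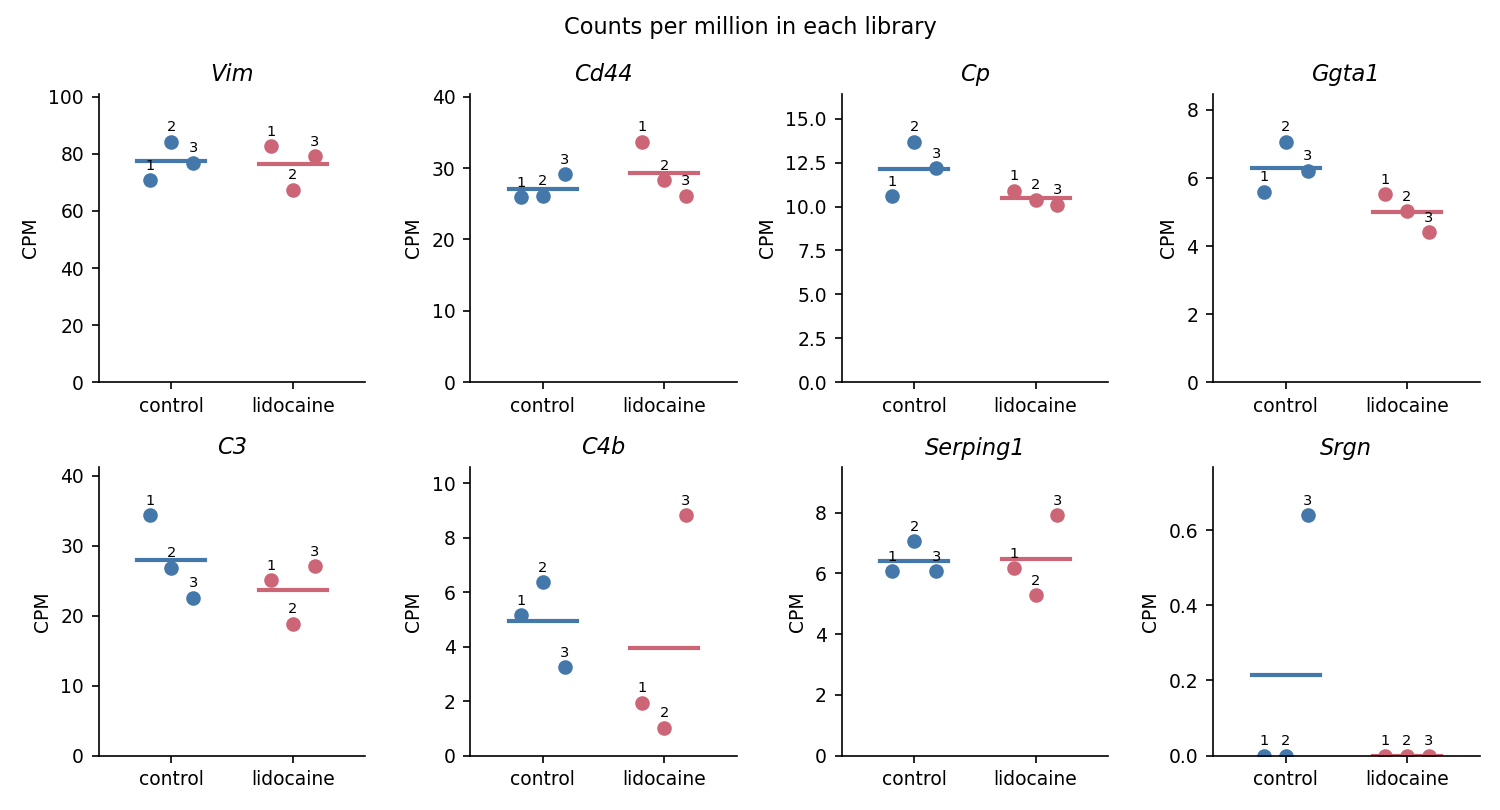
CPM (counts scaled to a common library size, vertical axis from 0) of the 8 members with a row, by group. Points are libraries, numbered as in the labels, and bars are group means; the groups overlap in every panel except Ggta1, and C4b is highest in lidocaine 3 at 8.83 CPM.

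Among the pan-reactive members, Vim encodes vimentin, an intermediate filament protein that astrocytes share with endothelial and ependymal cells. It was at 70.8, 84.3 and 76.9 CPM (counts scaled to a common library size) in controls 1, 2 and 3 and at 82.7, 67.4 and 79.2 CPM in lidocaine 1, 2 and 3. The highest and the lowest library of all were control 2 and lidocaine 2, and the groups overlapped. The log2 fold change was -0.02 ± 0.10 (SE), with a 95% interval from -0.25 to 0.21, which as a ratio runs from 0.843 to 1.16. Gfap, the filament protein assembled with vimentin in astrocytes, had 0.09 ± 0.07 on the same scale, with an interval from -0.08 to 0.26.

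Cd44, a receptor for the matrix sugar hyaluronan that reactive astrocytes display, was at 25.9, 26.1 and 29.1 CPM in controls and at 33.7, 28.3 and 26.1 CPM with lidocaine. Lidocaine 1 was the highest, while lidocaine 3 lay within the control range. The log2 fold change was 0.12 ± 0.12 (95% interval -0.15 to 0.39), and 0.01 without lidocaine 1. In that library the summed CPM of meningeal fibroblast markers was also the highest, at 335, against 267 to 279 in controls and 300 and 309 in the other lidocaine libraries. That list, whose 11 matched genes were all tested, had a median log2 fold change of 0.23 with 10 positive. Here and below, correlations between libraries were computed on log2 values of CPM. Cd44 and the meningeal sum had an r of 0.76 (exact permutation p = 0.0597, adjusted p = 0.836). Their rho was 0.66 (exact permutation p = 0.175, adjusted p = 0.889), and r was -0.03 without the 2 farthest libraries. Cd44 and the oligodendrocyte sum, lowest in lidocaine 1 at 8418 CPM, had an r of -0.77 (exact permutation p = 0.0597, adjusted p = 0.836) and a rho of -0.54 (exact permutation p = 0.297, adjusted p = 0.889), and r was 0.05 without the 2 farthest.

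Cp encodes ceruloplasmin, a copper-containing ferroxidase that lets cells export iron, which astrocytes carry on their surface. It was at 10.6, 13.7 and 12.2 CPM in controls and at 10.9, 10.4 and 10.1 CPM with lidocaine. The lidocaine libraries lay close together, lidocaine 2 and 3 below every control and lidocaine 1 above control 1. The log2 fold change was -0.22 ± 0.14 (95% interval -0.54 to 0.11). Against summed microglial markers, Cp had an r of -0.85 over the 6 libraries (exact permutation p = 0.0292, adjusted p = 0.836) and a rho of -0.54 (exact permutation p = 0.297, adjusted p = 0.889), with r = -0.71 without the 2 farthest libraries.

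Among the A1 members, Ggta1 encodes the galactosyltransferase that adds alpha-galactose caps to cell-surface sugars. It was at 5.60, 7.07 and 6.21 CPM in controls and at 5.53, 5.03 and 4.4 CPM with lidocaine. All lidocaine libraries lay below all controls, which was so for 5.09% of genes tested (9.99% in either direction, 4.9% with lidocaine higher), and lidocaine 1 lay just under control 1. On the FPKM scale the groups overlapped, with 1.17 in control 1 and 1.26 in both lidocaine 1 and lidocaine 2. The log2 fold change was -0.34 ± 0.18 (95% interval -0.76 to 0.09; edgeR, Benjamini-Hochberg-adjusted p = 0.995), a ratio of 0.592 to 1.06.

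Srgn encodes serglycin, the proteoglycan core of secretory granules, and is made by blood and endothelial cells as well as by A1 astrocytes. It was listed at 8.96 estimated counts in control 3 and at 0 in the other 5 libraries, and did not pass the filter. A count of 0 allows up to 3 counts, between 0.177 and 0.216 CPM in these libraries, for counting error only. Its count is fractional, and the microglial protease gene Ctss was also listed at 0 in all 6 libraries, so the 0 may be a failed estimate and no comparison was made.

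C3, the component on which all complement pathways meet, was counted 498, 426 and 316 times in controls and 427, 305 and 431 times with lidocaine. These were 34.4, 26.9 and 22.6 CPM against 25.1, 18.9 and 27.1 CPM. Control 1 was the highest and lidocaine 2 the lowest, and lidocaine 3 lay above controls 2 and 3. On the log2 scale C3 differed by -0.24 ± 0.19 (95% interval -0.68 to 0.20), and as a ratio the interval runs from 0.625 to 1.15. Without control 1 the log2 fold change was -0.06, and without lidocaine 2 it was -0.10. The biological coefficient of variation that edgeR gave C3, 17.3%, was above the 14.5% of its trend at that level. This coefficient was below the trend for Vim (9.71% against 10.1%), Cd44 (11.7% against 13.9%) and Cp (15.6% against 22.7%). The same held for Serping1 (21.0% against 28.7%) and Ggta1 (19.8% against 29.9%).

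C3 was compared with the summed levels of cell type markers across libraries, and no relation passed adjustment. The blood and immune list, of which 14 of 16 genes matched and haemoglobin genes make up most, summed to 966, 718 and 390 CPM in controls and 641, 509 and 765 CPM with lidocaine. Among its leukocyte and macrophage genes, Lyz2 was at 28.8 to 42.2 CPM, Mrc1 at 8.27 to 12.9 CPM, Ptprc at 2.71 to 4.93 CPM and Cd79a at 0 to 0.126 CPM. These did not all follow the sum. Mrc1 and Ptprc were highest in control 3, where the sum was lowest, and Lyz2 was lowest in lidocaine 3. Cd3e was highest in lidocaine 3 and control 1, at 3.36 and 3.31 CPM. Over the 6 libraries C3 and this sum, both as log2 values, had a Pearson r of 0.84 (exact permutation, p = 0.0375). Their Spearman rho was 0.94 (exact permutation, p = 0.0167). With 70 relations between members and marker lists computed, neither passed (Benjamini-Hochberg-adjusted exact permutation p = 0.836 and 0.583). Without the 2 libraries farthest from the median of the sum, r was 0.97. General astrocyte markers gave C3 an r of 0.84 (exact permutation p = 0.0417, adjusted p = 0.836) and a rho of 0.94 (exact permutation p = 0.0167, adjusted p = 0.583), with r = 0.98 without the 2 farthest libraries. Their 16 genes summed to 12136, 11141 and 10869 CPM in controls and 11126, 11005 and 11183 CPM with lidocaine. The relation was picked out after the values were seen, and the part of either list in the C3 value was not tested.

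**Figure D2:**
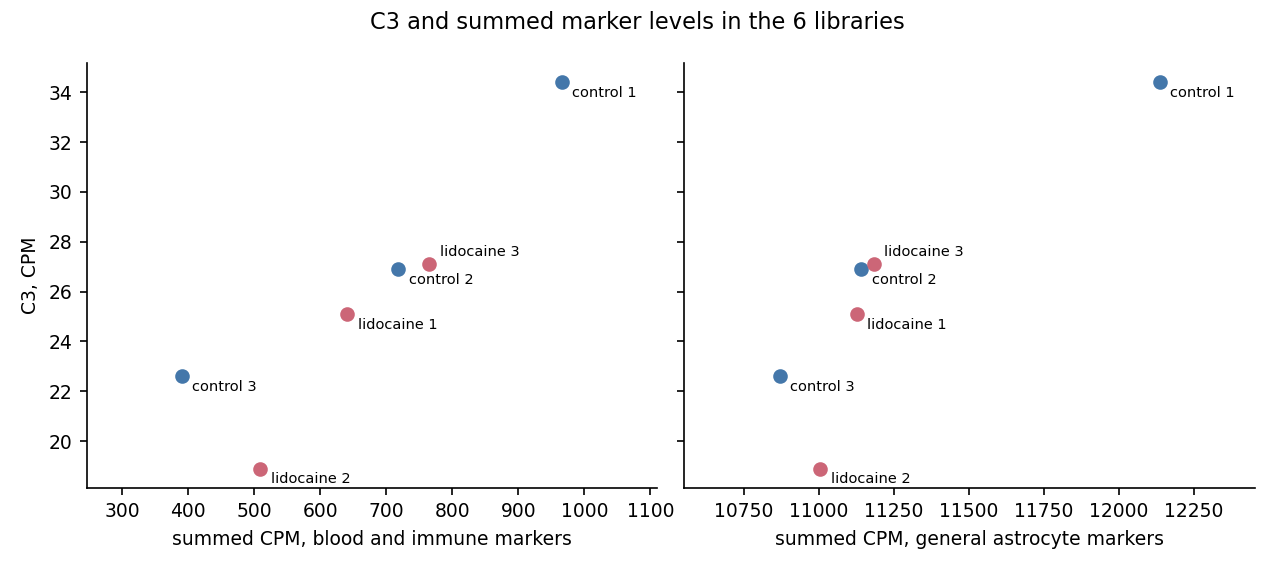
C3 in CPM (vertical axes, not starting at 0) against the summed CPM of blood and immune markers (left) and general astrocyte markers (right), horizontal axes not starting at 0. Each point is a library, blue for control and red for lidocaine; control 1 is highest on every axis, with C3 at 34.4 CPM.

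Complement C4, which C1 cleaves on the way to C3, was spread over 3 rows of the table: C4b, C4a and LOC103689965, described there as complement C4-like. The mouse has closely related neighbouring genes C4b and C4a, and the stretch below is shown because their transcripts differ most there. It is the 90-base part of 1 coding exon, exon 21 of each transcript, with the most differences, 14, written in capitals, and is read 5′ to 3′ on the minus strand of chromosome 17 in the mouse build GRCm38 with the GENCODE M21 annotation. C4b lies there at chr17:34735430-34735519 and C4a at chr17:34816086-34816175.
C4b: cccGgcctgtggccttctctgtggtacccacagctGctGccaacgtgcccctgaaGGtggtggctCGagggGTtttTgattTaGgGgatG
C4a: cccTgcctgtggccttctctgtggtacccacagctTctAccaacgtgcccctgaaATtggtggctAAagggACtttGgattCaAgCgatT
Over the coding part of C4b the transcripts were 96.1% identical over 5204 aligned bases, with an identical run of 433 bases. Of the 100-base windows of that part, 16.4% occur unchanged in C4a. The table's rows are rat genes, whose sequences were not used here, so these figures describe the mouse pair only.

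The C4b row held little of the C4 signal. Its estimated counts were 74.6, 100.84 and 45.46 in controls and 33.12, 16.62 and 140.49 with lidocaine, and none was whole. The rows LOC103689965, C4b and C4a together summed to a whole number, within 0.01, in 6 of 6 libraries, whereas no pair of these rows did so in more than 1. Of the summed counts, LOC103689965 held 88.2%, C4b 9.61% and C4a 2.23%. Judged from counts per FPKM, the C4a row stands for a length of 12.7% of the C4b row, and LOC103689965 for 98.5%.

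Taken alone, the rows gave unlike values. C4b had a log2 fold change of -0.33 ± 0.79 (95% interval -2.28 to 1.63), and LOC103689965 had -0.07 ± 0.39 (-1.04 to 0.91). C4a, at 10.47, 0 and 7.12 counts in controls and 16.24, 21.93 and 39.61 with lidocaine, had 2.02 ± 0.86 (-0.01 to 4.04; edgeR, Benjamini-Hochberg-adjusted p = 0.995). Leaving out each library gave C4a 1.42 to 2.70, the lowest without control 2. Among other methods, limma on log2(FPKM + 1) gave 0.82, limma on log2(FPKM + 0.1) 2.04, DESeq2 2.03 and limma-voom 2.76. All 3 C4a values with lidocaine lay above those of the controls. Its counts were fractional, and whole only in the sum of the C4 rows.

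The 3 rows were therefore also summed, a step chosen after the data were seen. The sum was 722, 888 and 477 counts in controls and 506, 509 and 1177 with lidocaine, which were 49.9, 56.1 and 34.1 CPM against 29.8, 31.6 and 73.9 CPM. Lidocaine 1 and 2 lay below every control and lidocaine 3 above every control. The group means were 46.7 ± 11.4 and 45.1 ± 25 CPM (SD, n = 3 each). On the log2 scale the sum differed by -0.05 ± 0.42 (95% interval -1.12 to 1.02).

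**Figure D3:**
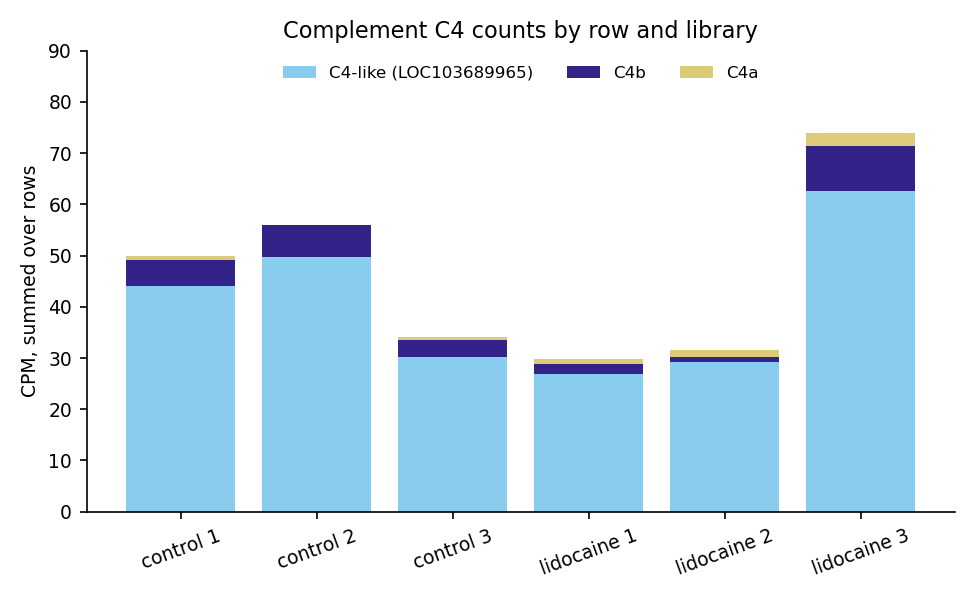
CPM of the C4 rows stacked by library (vertical axis from 0). Lidocaine 3 reaches 73.9 CPM, and the other lidocaine libraries 29.8 and 31.6 CPM, below the controls at 34.1 to 56.1 CPM.

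Leaving out lidocaine 3 moved C4b and the C4 sum the furthest. That library held 2.41 times the mean of the other lidocaine libraries for the sum and 5.92 times for the C4b row, while C3 in the same library was 1.23 times that mean. Without lidocaine 3, C4b had a log2 fold change of -1.71 ± 0.41 (edgeR, unadjusted p = 0.00444, Benjamini-Hochberg-adjusted p = 0.764). The sum had -0.60 ± 0.21 (edgeR, unadjusted p = 0.0308, adjusted p = 0.923). Lidocaine 3 was the highest library for C4, so p-values found by leaving it out are no test of a change. With any other library left out, C4b had an unadjusted p of 0.569 to 0.999 (edgeR). Without lidocaine 1 the log2 fold changes of C4b and the sum were 0.00 and 0.18, and without lidocaine 2 they were 0.12 and 0.15. Without control 2 they were -0.10 and 0.10, and C4a was at 1.54 without lidocaine 3. The coefficient of variation that edgeR gave the C4b row, 66.5%, was above its trend, 32.3%.

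Serping1 encodes C1 inhibitor, the serpin that binds the C1 proteases and so restrains the step before C4. It was at 6.08, 7.07 and 6.07 CPM in controls and at 6.18, 5.28 and 7.92 CPM with lidocaine. Lidocaine 2 was the lowest and lidocaine 3 the highest of all 6, on either side of the controls. The log2 fold change was 0.01 ± 0.20 (95% interval -0.45 to 0.47), and -0.16 without lidocaine 3.

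**Figure D4:**
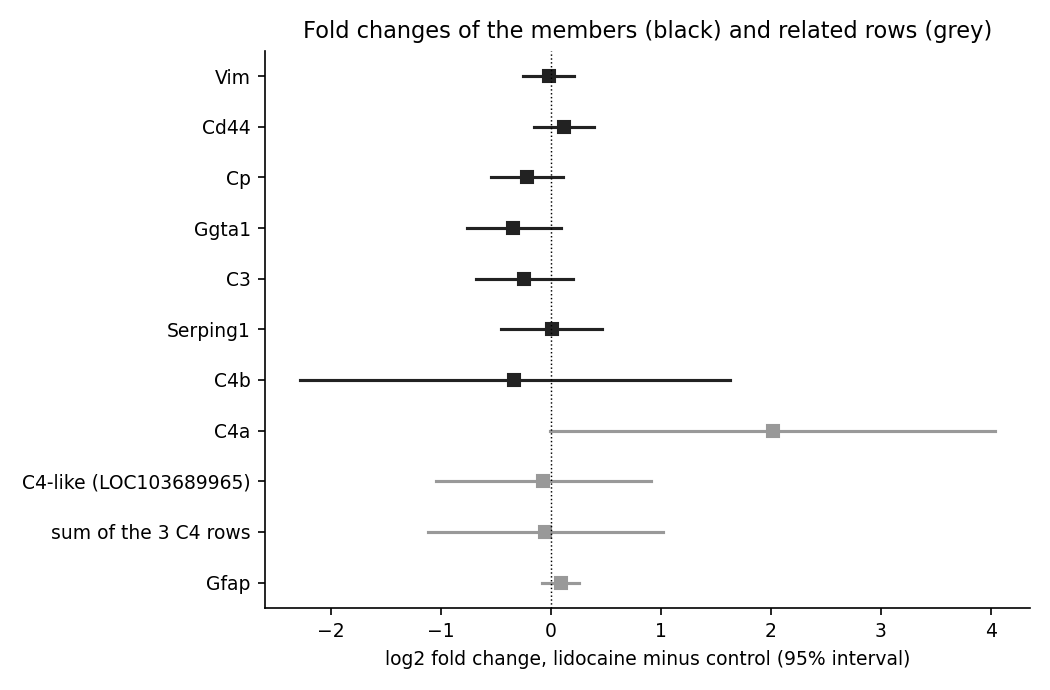
Log2 fold change of lidocaine minus control (horizontal axis) with 95% intervals from edgeR's quasi-likelihood fit, for the 7 members tested (black) and for Gfap, the other C4 rows and the sum of the C4 rows (grey). Every interval includes 0, and the interval of C4b, from -2.28 to 1.63, is the widest of the members.

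Members were also compared with each other from library to library. Of 21 pairs among the members and the C4 sum, Cp and Ggta1 were the closest. Their Pearson r over 6 libraries was 0.93 (exact permutation p = 0.00278, and 0.0583 after Benjamini-Hochberg adjustment). Their Spearman rho was 0.94 (exact permutation p = 0.0167, adjusted p = 0.35), and r was 0.90 without the 2 libraries farthest from the median of Cp. Serping1 and the C4 sum, both highest in lidocaine 3, had an r of 0.85 (exact permutation p = 0.0264, adjusted p = 0.233) and a rho of 0.66 (exact permutation p = 0.175, adjusted p = 0.525), and r was 0.64 without the 2 farthest libraries. Cd44 and the C4 sum went in opposite directions, with an r of -0.80 (exact permutation p = 0.0333, adjusted p = 0.233), a rho of -0.71 (exact permutation p = 0.136, adjusted p = 0.525) and r = -0.85 without the 2 farthest. The genes most like Vim, the member with the highest CPM, were Kbtbd8, Nptn and RGD1306063, with a Pearson r of 0.99, 0.99 and 0.98 over 6 libraries. They are the highest of 8796 genes compared, so no p is given.

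**Figure D5:**
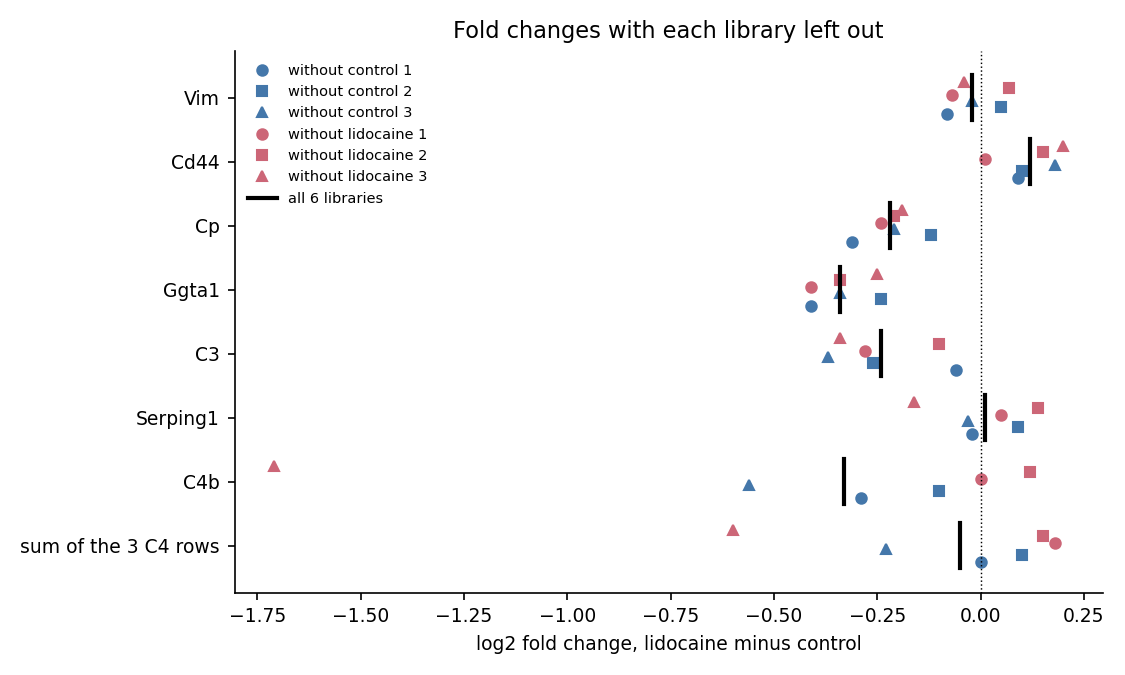
Log2 fold changes (horizontal axis) of the members and of the sum of the C4 rows, with all 6 libraries (black bars) and with each library left out (blue, a control left out; red, a lidocaine library left out). Leaving out lidocaine 3 moves C4b to -1.71 and the sum to -0.60.

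The other genes of these pathways were read from 7 lists. Of 96 distinct genes, 60 were tested, 53 of them not members. Of the 53, edgeR called 0, 2 had an unadjusted p under 0.05 (3.77%, against 4.36% of all genes tested), 26 had positive fold changes and 5 had groups that did not overlap (9.43%, against 9.99%). DESeq2 called 0 in each of the 7 lists.

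In the pan-reactive list, 10 of 13 genes were tested, with 3 positive and 7 negative fold changes and a median of -0.22 on the log2 scale. The median was -0.01 without lidocaine 2, -0.11 with genes of at least 1 CPM on average and -0.07 with limma on log2(FPKM + 1). Hspb1, a small heat shock protein, was at 41.4, 32.4 and 21.1 CPM in controls and at 23.2, 20.3 and 15.2 CPM with lidocaine. Control 3 lay below lidocaine 1, and the log2 fold change was -0.69 ± 0.27 (unadjusted p = 0.0376, Benjamini-Hochberg-adjusted p = 0.995, edgeR). Aspg, an asparaginase, had -0.80 ± 0.41 on 6 to 17 counts per library, with all lidocaine libraries below all controls. Timp1 of the same list went the other way. It had 0.74 ± 0.41 on 7 to 23 counts per library, with all lidocaine libraries above all controls.

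In the A1 list, 8 of 13 genes were tested, with 5 positive and 3 negative and a median of 0.03. Fkbp5, a co-chaperone induced by glucocorticoids, was at 117, 124 and 121 CPM in controls and at 144, 124 and 146 CPM with lidocaine. Lidocaine 2 lay at the level of control 2 and the other lidocaine libraries above all controls. Its log2 fold change was 0.19 ± 0.08 (unadjusted p = 0.0375, Benjamini-Hochberg-adjusted p = 0.995, edgeR) on fractional counts, and the adhesion protein gene Amigo2 had -0.11 ± 0.24.

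In the A2 list, 8 of 13 genes were tested, with 5 positive and 3 negative and a median of 0.16. Ptgs2, cyclooxygenase 2, which hippocampal neurons also express, was at 88.4, 88.3 and 88.6 CPM in controls and at 75.2, 59.7 and 88.1 CPM with lidocaine. All lidocaine libraries lay below all controls, lidocaine 3 only just and lidocaine 2 the furthest, with a log2 fold change of -0.25 ± 0.13. Emp1, a membrane protein, had 0.33 ± 0.19.

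Of complement components 12 of 24 were tested, 6 positive and 6 negative, with a median of 0.01. C1s, a protease of C1, had a log2 fold change of -0.34 ± 0.19, at 8.65 to 11.6 CPM in controls and 6.41 to 9.26 CPM with lidocaine. Of the late components, C7 was tested on 11 to 48 counts per library, with a log2 fold change of 0.33 ± 0.61. C8g had 5 to 20 counts, C5 0 to 5, C6 1 to 5, C8a 0 to 2 and C8b 0 to 3, C9 was listed at 0 in every library, and none of these passed the filter. Of the regulators, 11 of 13 were tested, with 4 positive, 7 negative and a median of -0.01. Cr1l, known as Crry, a membrane protein that limits C3 cleavage in rodents, was at 34.4, 35 and 33.8 CPM in controls and at 36.8, 37.0 and 39.7 CPM with lidocaine. Its groups did not overlap, and the log2 fold change was 0.14 ± 0.08 (edgeR, Benjamini-Hochberg-adjusted p = 0.995). Csmd2, a large membrane protein with complement control domains, had 0.18 ± 0.20 on fractional counts.

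Of complement receptors 5 of 8 were tested, 4 positive and 1 negative, with a median of 0.08. C3ar1, the receptor of the C3a fragment, was counted 21 times in each control and 24, 29 and 30 times with lidocaine. As CPM this was 1.45, 1.33 and 1.5 against 1.41, 1.80 and 1.88, overlapping groups with a log2 fold change of 0.25 ± 0.28. The C5a receptor gene C5ar2 had 0.29 ± 0.40.

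Of the signals that turn astrocytes reactive and the STAT3 path they use, 10 of 16 genes were tested, 3 positive and 7 negative, with a median of -0.02. The cytokine genes Tnf, Il1a and Il1b were listed at 0 counts, 0 to 7 and 0 to 2, and none passed the filter. As with Srgn, values of 0 may be failed estimates. The C1 genes C1qa, C1qb and C1qc, counted above among the complement components, were tested. Their log2 fold changes were 0.10 ± 0.16, -0.01 ± 0.14 and -0.02 ± 0.15. Lifr, a receptor chain for cytokines of the interleukin 6 family, had 0.07 ± 0.06 and Cntf, a cytokine of that family made by astrocytes, -0.20 ± 0.19.

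Markers of the cells that share these genes were summed as well. General astrocyte markers, 16 of 16 tested, had a median log2 fold change of -0.01. Microglial markers, 15 of 18 tested, summed to 377 to 484 CPM in controls and 440 to 453 CPM with lidocaine, with Siglech and Ctss listed at 0. Endothelial markers, 8 of 12 tested, summed to 482 to 568 and 512 to 562 CPM, and ependymal markers, 8 of 10 tested, to 117 to 128 and 113 to 144 CPM. Choroid plexus markers summed to 7.02 to 15.5 and 7.47 to 10.5 CPM. Fold changes of the 10 oligodendrocyte markers were all negative (median -0.35 on the log2 scale). Their sums were 11653, 13567 and 12274 CPM in controls and 8418, 9433 and 11608 CPM in lidocaine 1, 2 and 3. Lidocaine 3 thus lay just under control 1. Relative to the control mean, the list's median log2 level was -0.57, -0.4 and -0.09 in these lidocaine libraries and -0.14 in control 1. Of the 10 markers, 5 had an unadjusted edgeR p under 0.05 and 3 had groups that did not overlap. Of the 11 meningeal fibroblast markers, 10 were positive, 2 had an unadjusted edgeR p under 0.05 and 3 had groups that did not overlap. Over all genes tested, 50.1% were negative, 4.36% had an unadjusted edgeR p under 0.05 and 9.99% had groups that did not overlap. No gene of these lists was called by edgeR, DESeq2 called 1 meningeal and 1 oligodendrocyte marker, and the part of these cells in the members' values was not tested.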

How the data were processed

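Hippocampal RNA of 6 young-mouse libraries was sequenced with a SMARTer kit, per the labels' protocols. The estimated counts and the FPKM values were deposited by the authors, per the file headers; the former are not scaled. The submitters' processing notes name mm10; for the aligner and counter no name was given in the sources used here, and all row identifiers are rat. Columns were matched to titles by group initial and number. The members and lists were chosen with earlier results of these data known. Estimated counts were rounded, filtered with filterByExpr (13408 genes left), scaled by TMM (0.991 to 1.009) and tested with edgeR 4.0.16 (quasi-likelihood, robust, two-sided, Benjamini-Hochberg) in R 4.3.3; standard errors and 95% intervals come from the F statistic. DESeq2 1.42.0, limma 3.58.1 (voom, and log2(FPKM + 1)), other scalings, filters, a replicate block and leaving out each library were alternatives. Named genes are the members, list genes with an unadjusted edgeR p under 0.05, each list's 2 other genes of smallest p, and Gfap. Also named are the 3 genes most like Vim among those of at least 10 CPM. The C4-like row, Timp1, Ctss, C5 to C9, C1qa, C1qb, C1qc, Tnf, Il1a, Il1b and marker genes were named after their values were seen. Cfb has several rows and was left out. With 3 against 3, an exact permutation p cannot go below 0.1. Chi-square per degree of freedom between libraries was at least 9.89.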

Additional observations from a re-analysis of the deposited data

How the results depend on the processing

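Members called stayed at 0 under every alternative run, and no member changed its side of the threshold. Genes called over the whole table numbered 2 in the fit reported, 23 with DESeq2, 5 with limma on log2(FPKM + 0.1), 4 at an adjusted p under 0.1, 0 with whole-number counts only (a setting chosen after seeing the data, 370 at an unadjusted p under 0.05) and 0 to 6 when each library was left out; the causes were not tested. Replicate numbers were not taken as pairs. Deviations of same-numbered libraries from their group means correlated at 0.045, 0.027 and -0.001, and those of other numbers at -0.043 to 0.017. Controls 1 and 2 correlated best with their own number, and control 3 did not. Deviations within a group sum to 0, so these correlations are not independent and cannot exclude pairing. With the replicate block edgeR called 0 genes (682 at an unadjusted p under 0.05), and Serping1 was at -0.00; limma-voom put it at -0.01. Leaving out each library gave log2 fold changes of -0.08 to 0.07 for Vim, -0.16 to 0.14 for Serping1, -1.71 to 0.12 for C4b, -0.56 to 0.15 for LOC103689965, -0.60 to 0.18 for the C4 sum and -0.33 to 0.06 for Amigo2, whose signs turned. Cd44 (0.01 to 0.20), Ggta1 (-0.41 to -0.24), C3 (-0.37 to -0.06) and Cp (-0.31 to -0.12) kept theirs. C4b was at -0.87 with limma-voom and -0.84 with the replicate block. The C4 sum has no FPKM value, since its rows differ in length. Srgn, Tnf, Il1a, Il1b and the late complement components other than C7 had too few counts to be tested.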
